A study of Oryza sativa with 12 samples.

Results

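Early in rice embryo development a small number of genes supplied a large share of the messenger RNA, and these genes are described here. They are the 100 genes with the highest mean CPM (a gene's counts scaled to the total of its library, the usual unit of count tables) over the 3 wild type libraries of the early stage, out of 38978 genes in the count table. Of these genes, 32693 were detected with 1 count or more. The members were thus chosen on the early wild type libraries, so every comparison that uses those libraries is given as a description without a test. RNA was sequenced from embryos of the *Oslec1-1* mutant (Oslec1), a line made with CRISPR/Cas9, and of its parent cultivar Nipponbare (NIP), both at 25 days after pollination (late embryo, LE) and at 7 days after pollination (early embryo, EE). The 4 groups, Oslec1 LE, NIP LE, Oslec1 EE and NIP EE, had 3 libraries each, which the study describes as biological replicates of about 30 embryos. Genotype and stage were the labelled differences, and a day of 16 h light and 8 h dark was common to all plants. The mutant is represented by a single edited line, and the library codes in the labels begin differently at the 2 stages. What these codes mark is not given in the sources used here, so that stage and whatever they mark cannot be told apart.

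OsLEC1 is the rice relative of Arabidopsis LEC1, a B subunit of the trimeric factor NF-Y that binds CCAAT boxes in promoters. In Arabidopsis, LEC1 is known as a regulator of embryo maturation, the phase in which seeds build up storage protein and oil and acquire desiccation tolerance. In the rice grain most storage protein is made in the endosperm, the tissue next to the embryo. Because a sequencing library is a closed total, a few transcripts that take up a large share of it lower the CPM of all other genes.

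What the members encode is stated here for 2 of them only. The gene tables used here pair no name with any of the 100 identifiers, and the study's list for nutrient reservoir activity, a Gene Ontology term used for seed storage proteins, holds Os01g0762500 and Os10g0400200. That list came from genes raised in Oslec1 EE, and names from the study's other lists are not given here. The remaining 98 members are therefore given by identifier and by position on IRGSP-1.0. The labelled tissue could not be checked against named markers of embryo or endosperm for the same reason, and neither could OsLEC1 itself.

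The members lay on all 12 chromosomes. Chromosome 3 held 24 of them, or 24% against 13.3% of the genes tested at EE. They were shorter, with a median span of 1846.5 bp (quartiles 1047 and 2855 bp) against 3029 bp (quartiles 1702 and 4593 bp) over the 23034 genes tested at EE. Apart from 2 stretches, no member had another within 50 kb. One stretch held Os03g0177900 and Os03g0178000, on chromosome 3 between 4110375 and 4119755. The other held 4 members on chromosome 6 between 2175908 and 2213482, all on the minus strand, which are described with their values at LE. CPM is not scaled for length, so a long gene gathers more counts than a short one at the same abundance. Of the 100 members, 76 were also among the 100 genes with the highest mean TPM (transcript abundance scaled for length and library) in NIP EE. On the TPM scale Os08g0127900 led NIP EE with a mean of 70800 TPM, ahead of Os11g0582400 with 65103 TPM.

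The ranking was steep at its head. Os11g0582400 (chromosome 11, 22012024 to 22013643), the most abundant member, had 85228, 101357 and 95907 CPM in the 3 NIP EE libraries, which is 9.42% ± 0.82 of their counts (SD, n = 3). At the lower end, Os11g0139700 at rank 99 averaged 704.5 CPM and Os06g0142300 at rank 100 averaged 691.9 CPM in NIP EE. Just outside, Os07g0529800 averaged 686.2 CPM and Os07g0480900, the next gene, averaged 672.1 CPM, so that the threshold fell at no visible step. The spread between replicates was small beside these levels, with a median coefficient of variation over the members of 11.7% in Oslec1 LE, 10.9% in NIP LE, 11.8% in Oslec1 EE and 9.85% in NIP EE. No member was near the detection limit in the libraries that chose it, where the lowest count of a member was 9681. Library totals lay between 16113922 and 27213238 counts over the 12 libraries, and no 2 libraries of a group held identical values.

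The 100 genes took 16.4% ± 0.73 of all counts in Oslec1 EE and 46.4% ± 1.53 in NIP EE (SD, n = 3 each). The single libraries gave 15.9%, 17.2% and 15.9% in Oslec1 EE and 44.7%, 47.2% and 47.4% in NIP EE, without overlap. Most of the gap lay in the first 4 genes, which together took 0.481% ± 0.13 in Oslec1 EE and 24.3% ± 1.70 in NIP EE. They accounted for 23.8 of the 30.1 percentage points between the genotypes. The members ranked 5 to 100 took 15.9% in Oslec1 EE and 22.1% in NIP EE. Since the members were chosen for being high in NIP EE, a lower share in another group is in part what the choice fixes. In whole embryos, fewer cells of a type and less RNA per cell cannot be told apart.

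**Figure D1:**
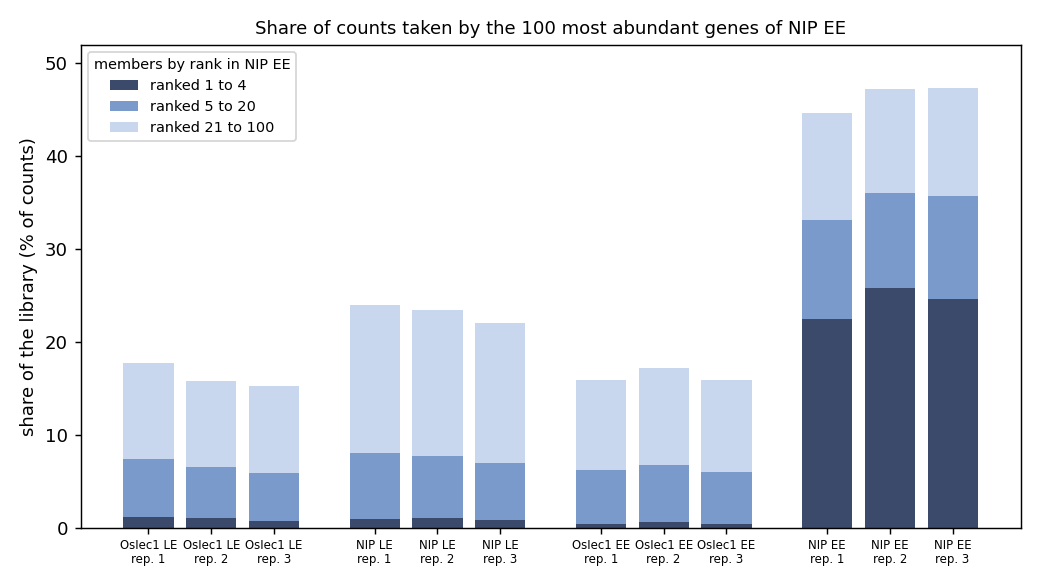
Share of each library's counts (%) taken by the members, stacked by rank in NIP EE, for the 12 libraries in their 4 groups. The darkest segment, ranks 1 to 4, takes 22.5% to 25.8% of the NIP EE libraries and no more than 1.11% of any other library.

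At LE the members took 16.2% ± 1.33 of the counts in Oslec1 and 23.2% ± 1.02 in NIP (SD, n = 3 each). The single libraries gave 17.7%, 15.8% and 15.2% in Oslec1 LE and 24.0%, 23.5% and 22.02% in NIP LE. Here the first 4 genes no longer made a difference, with 0.941% ± 0.23 in Oslec1 LE and 0.915% ± 0.10 in NIP LE, and overlapping libraries. A different set of 3 members, Os11g0703900, Os02g0161900 and Os08g0104400, took 3.58% in Oslec1 LE and 8.66% in NIP LE, which is 5.08 of the 6.91 percentage points between the genotypes. Without these 3 genes, picked after their values were seen, the members took 12.7% in Oslec1 LE and 14.5% in NIP LE.

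No other group had a set of genes that took as large a share. The 100 most abundant genes chosen in each group itself took 20.8% ± 1.14 in Oslec1 LE, 27.4% ± 1.38 in NIP LE, 23.6% ± 0.69 in Oslec1 EE and 46.4% ± 1.53 in NIP EE. Of the members, 51 were among the 100 most abundant genes of Oslec1 LE, 60 among those of NIP LE and 52 among those of Oslec1 EE. Other members ranked far lower, and 19 members in Oslec1 LE, 11 in NIP LE and 21 in Oslec1 EE were beyond rank 1000. The members included 9 of the 10 most abundant genes of Oslec1 LE, 9 of the 10 of NIP LE and 8 of the 10 of Oslec1 EE. By mean CPM, which the closed total affects, 5 members were most abundant in Oslec1 LE, 23 in NIP LE, 12 in Oslec1 EE and 60 in NIP EE. With the scaling described below, only 8 members were higher in Oslec1 EE than in NIP EE.

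For the differences between genotypes, log2 fold changes were fitted with edgeR after TMM scaling, which sets the bulk of the genes near 0 and so takes out the effect of the closed total. At EE this matters, because scaling by library size alone moved the median of all tested genes upward by 0.68 on the log2 scale. Over the 100 members the median log2 fold change of Oslec1 against NIP at EE was -2.15 (quartiles -4.01 and -0.57), while the median of all 23034 tested genes was 0.03. On this scale 92 members had a lower and 8 a higher value in Oslec1 EE. With library size alone the median of the members was -1.47, and 26 members had a higher value in Oslec1 EE.

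The members differed widely in how far they were reduced at EE. In Oslec1 EE, 26 members were at least 16-fold lower than in NIP EE, 25 were 4- to 16-fold lower, 11 were 2- to 4-fold lower, 35 were within 2-fold and 3 were at least 2-fold higher. A log2 fold change of -2 or below was thus found in 51 members, and 3.92% of all tested genes passed that limit. A log2 fold change of 2 or above was found in 2 members, and 10.9% of all tested genes passed that limit. The choice of members on NIP EE fixes much of the first count and nothing is read from it. The 26 genes at the far end took 0.689% ± 0.15 of the counts in Oslec1 EE and 29.2% ± 1.70 in NIP EE (SD, n = 3 each).

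Os11g0582400, first in NIP EE, had 327.7, 1100 and 611.8 CPM in the Oslec1 EE libraries, against 85228, 101357 and 95907 CPM in the NIP EE libraries. Its libraries did not overlap, and its log2 fold change was -7.78 ± 0.54 (SE). Its mean CPM, which has no TMM scaling, was 139-fold lower in Oslec1 EE. Os03g0663750 (chromosome 3, 26070770 to 26072916), next in rank, had 1475, 2317 and 1577 CPM in Oslec1 EE, against 58752, 67369 and 63671 CPM in NIP EE. Again every Oslec1 EE library was far below every NIP EE library, with a log2 fold change of -5.82 ± 0.31 (SE). Os08g0127900 (chromosome 8, 1597239 to 1599498), at rank 3 in NIP EE, had 1677, 2248 and 1359 CPM in Oslec1 EE, against 52162, 57460 and 56378 CPM in NIP EE, and a log2 fold change of -5.65 ± 0.30 (SE). Os03g0793700 (chromosome 3, 33020035 to 33022850), at rank 4 in NIP EE, had 468.2, 691.3 and 568.8 CPM in Oslec1 EE, against 28468, 31921 and 30115 CPM in NIP EE, and a log2 fold change of -6.38 ± 0.27 (SE). Without TMM scaling, the mean CPM of the first 4 genes was thus 31.4-fold to 139-fold lower in Oslec1 EE. There Os03g0663750, at rank 35, and Os08g0127900, at rank 37, stood highest among them and were level by mean CPM. By mean TPM in Oslec1 EE, Os08g0127900 was higher, with 2419 TPM against 667 TPM for Os03g0663750.

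Fold changes of similar size were found further down the list. Os04g0546500 (chromosome 4, 27362091 to 27362951) had 32.1, 39.1 and 59.2 CPM in Oslec1 EE, against 6250, 6619 and 6526 CPM in NIP EE. Its log2 fold change was -7.90 ± 0.28 (SE). Os05g0140800 (chromosome 5, 2345391 to 2346836) had 18.6, 38.2 and 34.8 CPM in Oslec1 EE, against 4296, 4903 and 4430 CPM in NIP EE, and a log2 fold change of -7.89 ± 0.32 (SE). Os01g0702500 (chromosome 1, 29123535 to 29124590) had 8.85, 10.3 and 14.9 CPM in Oslec1 EE, against 1589, 1607 and 1671 CPM in NIP EE, and a log2 fold change of -7.84 ± 0.23 (SE). The order among these 3 genes and Os11g0582400 lies within their errors, and without Oslec1 EE replicate 2 the value of Os11g0582400 was -8.36 and that of Os04g0546500 -7.86. Os01g0702500 ranked 45 in NIP EE and 12522 in Oslec1 EE, the lowest rank of a member there.

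**Figure D2:**
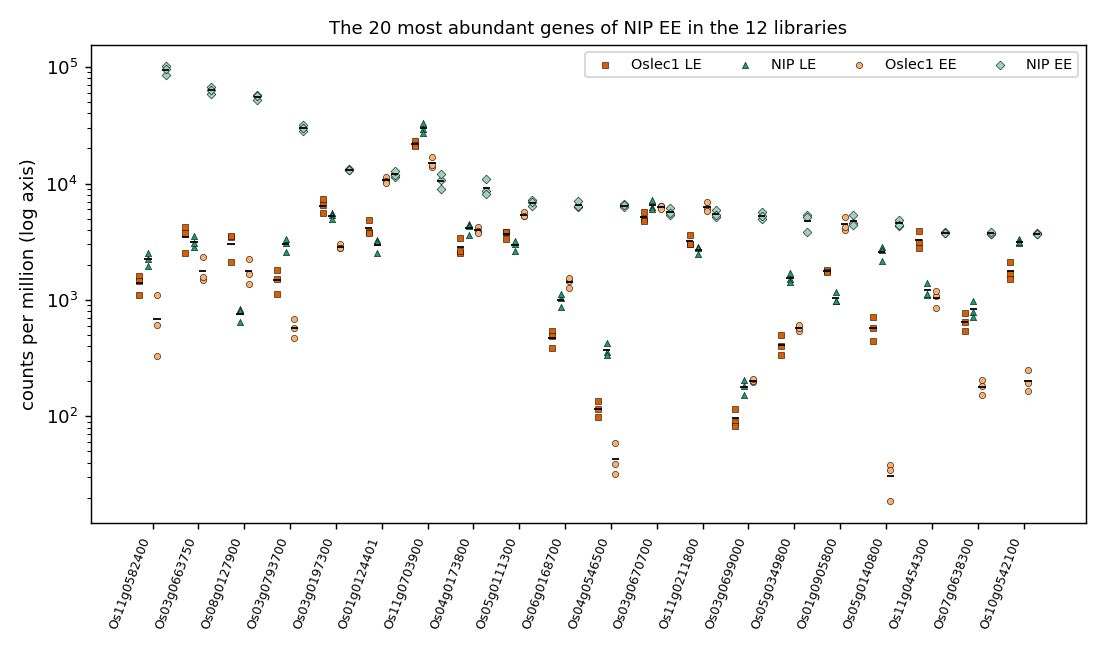
CPM (log axis) of the 20 members with the highest mean in NIP EE, in order of that mean, with 1 point for each library and a bar at each group mean. The first 4 genes lie at 2317 CPM or less in the Oslec1 EE libraries and at 28468 CPM or more in the NIP EE libraries, while Os11g0703900 is at 8958 CPM or more in all 12 libraries.

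At the other end were members that kept or raised their share of the counts. Os11g0703900 (chromosome 11, 28804256 to 28808548) had 13827, 16858 and 14459 CPM in Oslec1 EE, against 10790, 8958 and 12029 CPM in NIP EE. Its CPM was higher in every Oslec1 EE library, but its log2 fold change was -0.17 ± 0.19 (SE) with TMM and 0.51 with library size alone, so that its direction depends on the scaling. By mean CPM it ranked 1 in Oslec1 LE, NIP LE and Oslec1 EE, but in NIP LE it was level with Os02g0161900 and in Oslec1 EE with Os01g0762500, each of which was above it in single libraries. By mean TPM it ranked 2 in Oslec1 LE, 5 in NIP LE and 9 in Oslec1 EE. Os04g0418800 (chromosome 4, 20708033 to 20709830) had 7784, 8022 and 8007 CPM in Oslec1 EE, against 2020, 2603 and 2293 CPM in NIP EE, and a log2 fold change of 1.10 ± 0.15 (SE). Os01g0256500 (chromosome 1, 8546065 to 8546869) had 8078, 9241 and 8532 CPM in Oslec1 EE, against 3176, 3359 and 3684 CPM in NIP EE, and a log2 fold change of 0.66 ± 0.16 (SE).

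The 2 members with the highest log2 fold change at EE were the 2 annotated for nutrient reservoir activity. This match was fixed in advance, because the study drew that list from genes raised in Oslec1 EE. No other member reached a log2 fold change of 2 there, and a storage protein gene that was lower could not have been listed. Os01g0762500 (chromosome 1, 32076744 to 32078652) had 15356, 13650 and 14699 CPM in Oslec1 EE, against 1188, 1426 and 1077 CPM in NIP EE, and a log2 fold change of 2.89 ± 0.17 (SE). Os10g0400200 (chromosome 10, 13497363 to 13499401) had 10627, 9609 and 9862 CPM in Oslec1 EE, against 763.1, 930.1 and 659.3 CPM in NIP EE, and a log2 fold change of 3.002 ± 0.17 (SE). They ranked 2 and 4 by mean CPM in Oslec1 EE. The readable part of the study's list, 30 genes with these 2 among them, was chosen by the study on these same libraries. Its summed level was 61785 to 67983 CPM in Oslec1 EE and 4531 to 6112 CPM in NIP EE, and 184.0 to 1307 CPM in Oslec1 LE and 86.1 to 220.2 CPM in NIP LE. Of its genes, 0 had no count in Oslec1 EE and 2 had none in NIP EE. A set of 17 identifiers was written down as endosperm genes from general knowledge, and no source used here pairs them with a name. It holds 15 genes of that list, these 2 members among them. The set summed to 57151 to 63175 CPM in Oslec1 EE and 4229 to 5649 CPM in NIP EE, sums that contain the members' own levels. The part that endosperm RNA may have in the levels of these 2 members was not tested. Among embryo identifiers written down in the same way, the members were Os04g0546500, Os03g0699000, Os05g0349800 and Os11g0454300. Their log2 fold changes at EE were -7.90, -5.39, -3.74 and -2.53. Since the members were chosen on NIP EE, nothing is read from these values. The embryo identifiers outside the members are not given here.

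The comparison of Oslec1 with NIP at LE rests on libraries that took no part in choosing the members, and could be tested. With edgeR's quasi-likelihood test at a Benjamini-Hochberg adjusted p under 0.05, 50 of the 100 members were lower in Oslec1 LE, against 21.3% of all 24065 tested genes, and 20 were higher, against 25.6% of all tested genes. The other 30 members did not pass the test. Members are abundant genes, and the shares over all tested genes were not matched for abundance, which bears on how readily a gene is called. With the further limit of a log2 fold change of at least 2 in size, 9 members were lower (1.24% of all tested genes) and 7 were higher (8.29% of all tested genes). Taken by separation alone, all Oslec1 LE libraries lay below all NIP LE libraries in 55 members (28% of all tested genes) and above them in 22 members (30.7% of all tested genes). The median log2 fold change of the members at LE was -0.41 (quartiles -1.08 and 0.21), with 0.02 for all tested genes. Library size alone moved the median of all tested genes by 0.10. Leaving out NIP LE replicate 2 took the count of members called higher to 13.

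**Figure D3:**
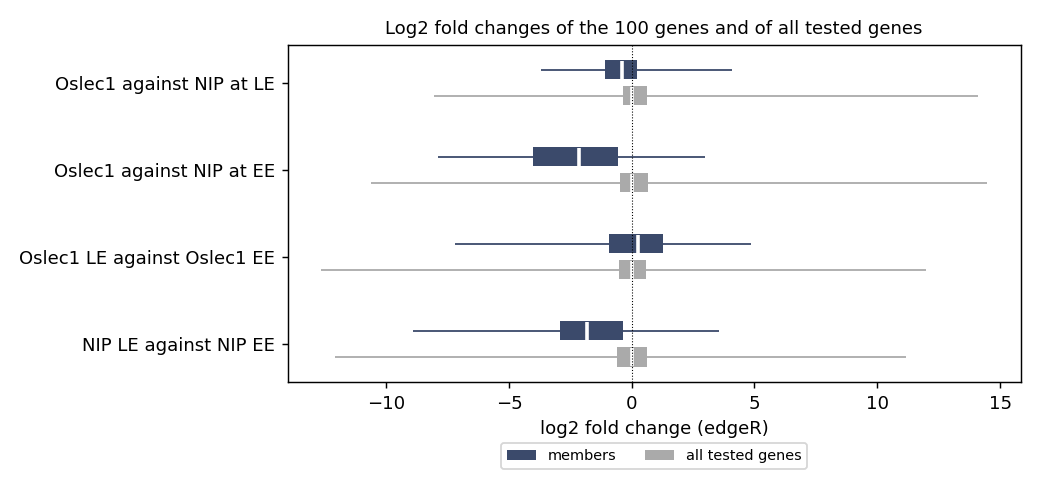
Log2 fold changes of the 100 members and of all tested genes in the 4 comparisons, with the median as a white mark, the quartiles as a bar and the range as a line. The members' median is -0.41 for Oslec1 against NIP at LE, -2.15 at EE, 0.26 for LE against EE in Oslec1 and -1.82 for LE against EE in NIP, where both comparisons with NIP EE use the libraries that chose the members.

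The lower members at LE were led by Os01g0111600 (chromosome 1, 612564 to 615631), with 296.7, 354.3 and 256.9 CPM in Oslec1 LE, against 3478, 3940 and 3595 CPM in NIP LE. Its libraries were far apart, with a log2 fold change of -3.70 ± 0.15 (SE, edgeR adjusted p = 7.5e-06). Os08g0104400 (chromosome 8, 233816 to 234464) had 3950, 3519 and 3513 CPM in Oslec1 LE, against 25809, 28222 and 26374 CPM in NIP LE, and fell by 2.98 ± 0.14 on the log2 scale (SE, edgeR adjusted p = 1.04e-05). On the TPM scale it was the first gene of NIP LE. Os04g0618400 (chromosome 4, 31410510 to 31410971) had 65.8, 57.0 and 36.2 CPM in Oslec1 LE, against 315.6, 399.5 and 387.3 CPM in NIP LE, a log2 fold change of -2.89 ± 0.23 (SE, edgeR adjusted p = 9.7e-05). Os05g0519700 and Os03g0266300 were the next, with log2 fold changes of -2.60 and -2.52 and no overlap between the genotypes.

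Os02g0161900 (chromosome 2, 3340458 to 3343060) was among the most abundant genes of the late wild type embryo. It had 11907, 8841 and 9893 CPM in Oslec1 LE, against 32244, 30673 and 26708 CPM in NIP LE, a log2 fold change of -1.65 ± 0.17 (SE, edgeR adjusted p = 0.000309). At EE the same gene had 1910, 2658 and 2473 CPM in Oslec1, against 2662, 2837 and 3119 CPM in NIP, a log2 fold change of -0.97. Os11g0703900 had 23391, 21599 and 20903 CPM in Oslec1 LE, against 32864, 29639 and 27291 CPM in NIP LE. Its log2 fold change was -0.55 ± 0.15 (SE, edgeR adjusted p = 0.0179), and the adjusted p was 0.087 without NIP LE replicate 2, 0.0923 without Oslec1 LE replicate 2 and 0.0854 without Oslec1 LE replicate 3. With limma on log2 FPKM it was at most 0.0995.

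Of the 4 genes that led NIP EE, Os11g0582400 and Os03g0793700 were still lower in the mutant at LE. Os11g0582400 had 1602, 1463 and 1107 CPM in Oslec1 LE, against 2246, 2512 and 1968 CPM in NIP LE, a log2 fold change of -0.79 ± 0.17 (SE, edgeR adjusted p = 0.00731). Os03g0793700 had 1813, 1518 and 1115 CPM in Oslec1 LE, against 3079, 3369 and 2558 CPM in NIP LE, a log2 fold change of -1.12 ± 0.20 (SE, edgeR adjusted p = 0.00352). Os03g0663750 did not pass the test, with 4191, 3795 and 2521 CPM in Oslec1 LE, against 2826, 3536 and 3091 CPM in NIP LE, and overlapping libraries (log2 fold change 0.05 ± 0.20, edgeR adjusted p = 0.851). Os08g0127900 was higher, with 3462, 3532 and 2103 CPM in Oslec1 LE, against 648.2, 833.1 and 797.9 CPM in NIP LE, a log2 fold change of 1.90 ± 0.22 (SE, edgeR adjusted p = 0.000501).

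The higher members at LE included Os08g0473600 (chromosome 8, 23335167 to 23337076), with 2968, 3202 and 3434 CPM in Oslec1 LE, against 221.5, 241.4 and 200.2 CPM in NIP LE. Its libraries did not overlap, and its log2 fold change was 3.75 ± 0.12 (SE, edgeR adjusted p = 3.48e-06). At EE it had 313.3, 417.4 and 398.3 CPM in Oslec1, against 2452, 1681 and 2358 CPM in NIP, a log2 fold change of -3.20. Its log2 fold change from EE to LE was -3.86 in NIP, without a test, and 3.07 in Oslec1 (edgeR adjusted p = 1.76e-06). Both nutrient reservoir genes were higher at LE as well, but at low and uneven levels. Os01g0762500 had 216.4, 15.4 and 81.7 CPM in Oslec1 LE, against 21.9, 14.2 and 9.66 CPM in NIP LE, with a log2 fold change of 2.68 ± 0.84 (SE, edgeR adjusted p = 0.0332). Os10g0400200 had 140.3, 15.1 and 51.0 CPM in Oslec1 LE, against 17.3, 12.9 and 8.41 CPM in NIP LE, with a log2 fold change of 2.33 ± 0.73 (SE, edgeR adjusted p = 0.0334). The level of Oslec1 LE replicate 2 overlapped with the NIP LE libraries for both genes. Without Oslec1 LE replicate 1 the log2 fold changes were 1.56 and 1.25 and the adjusted p 0.0981 and 0.0899, and leaving out NIP LE replicate 2, NIP LE replicate 3 or Oslec1 LE replicate 3 ended both calls too. Neither gene was called by limma on log2 FPKM, with adjusted p between 0.0835 and 0.0967.

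The 4 neighbours on chromosome 6 were each called higher in Oslec1 LE than in NIP LE. Os06g0141600 had 38.8, 58.0 and 55.6 CPM in Oslec1 LE, against 0.392, 0.981 and 14.2 CPM in NIP LE. Os06g0142200 had 368.4, 343.5 and 363.7 CPM in Oslec1 LE, against 43.5, 55.4 and 153.8 CPM in NIP LE. Os06g0142300 had 108.3, 105.0 and 96.4 CPM in Oslec1 LE, against 1.68, 1.84 and 23.2 CPM in NIP LE. For each of these genes the NIP LE replicate 3 stood apart from the other NIP LE libraries and still below every Oslec1 LE library. Os06g0142400 had 258.8, 265.8 and 276.3 CPM in Oslec1 LE, against 0.673, 0.588 and 42.6 CPM in NIP LE, the same picture. Their log2 fold changes were 3.16 ± 0.97, 1.99 ± 0.44, 3.42 ± 0.91 and 4.09 ± 1.36 (SE), with edgeR adjusted p values of 0.0308, 0.00855, 0.0183 and 0.0416. Without NIP LE replicate 3 they were 5.98, 2.73, 5.73 and 8.60. The calls of Os06g0141600 and Os06g0142400 were lost when some other single libraries were left out, with adjusted p up to 0.0792 and 0.0874. At EE the 4 genes had log2 fold changes of -1.997, -1.57, -2.17 and -0.93, each with every Oslec1 library below every NIP library after TMM scaling. Os06g0142350, in the same stretch but at rank 104 and so outside the members, had 72.3, 71.3 and 77.5 CPM in Oslec1 LE. In NIP LE it had 1.63, 1.53 and 21.9 CPM. Its log2 fold change was 3.03 ± 0.90 at LE (SE, edgeR adjusted p = 0.0284) and -1.83 at EE. Since neighbours of this kind may be near-identical copies, reads could have been split among them in the counting.

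**Figure D4:**
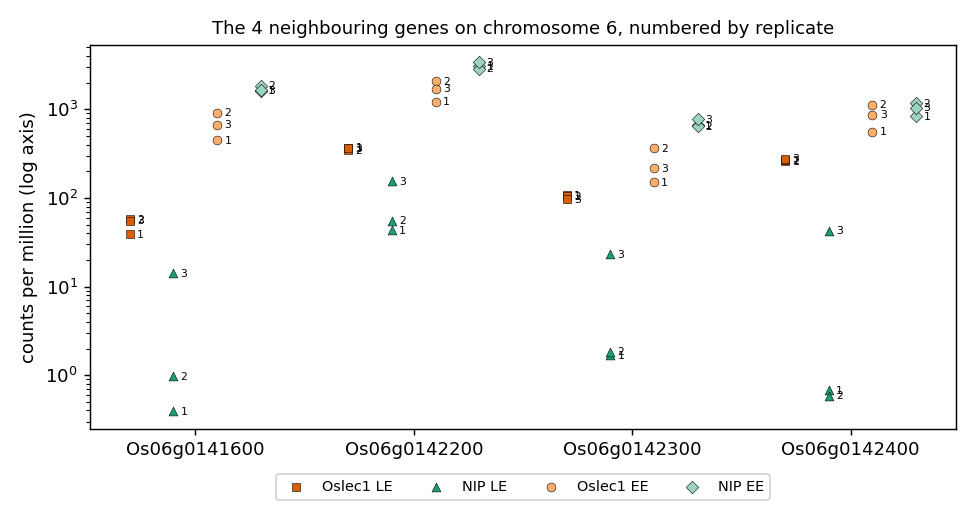
CPM (log axis) of the 4 neighbouring members on chromosome 6 in the 12 libraries, each point numbered by its replicate. NIP LE replicate 3 lies above the other NIP LE libraries for all 4 genes, and the Oslec1 LE libraries lie above all NIP LE libraries.

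The differences at the stages share no library, so the fold changes of the members at EE and LE can be set beside each other. Of the 51 members at least 4-fold lower in Oslec1 EE, 31 were called lower at LE, 6 higher and 14 were not called, and their median log2 fold change at LE was -1.003 (quartiles -1.90 and -0.13). Of all 841 genes at least 4-fold lower in Oslec1 EE, 62.5% were called lower at LE and 5.47% higher, with a median of -0.95. Of the other 49 members, 19 were called lower, 14 higher and 16 were not called, with a median of -0.10 (quartiles -0.55 and 0.37). Of the remaining 21468 genes tested at both stages, 20.5% were called lower and 25.5% higher, with a median of 0.03. The difference between these sets, which were split after the values were seen, was not tested. Across the 100 members, the fold changes at EE and LE were related with a Pearson r of 0.42 and a Spearman rho of 0.45, against 0.70 and 0.55 over the 22309 genes tested at both stages. The points are genes, not replicates, and all come from the same mutant line. The sign was the same at both stages in 70 members, and in 68.3% of all these genes. In 16 members every Oslec1 library lay below every NIP library at EE and above every NIP library at LE, as in 3.65% of all these genes, and in 2 members it was the other way round, as in 3.54%. The NIP EE libraries chose the members, so nothing is read from these counts.

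**Figure D5:**
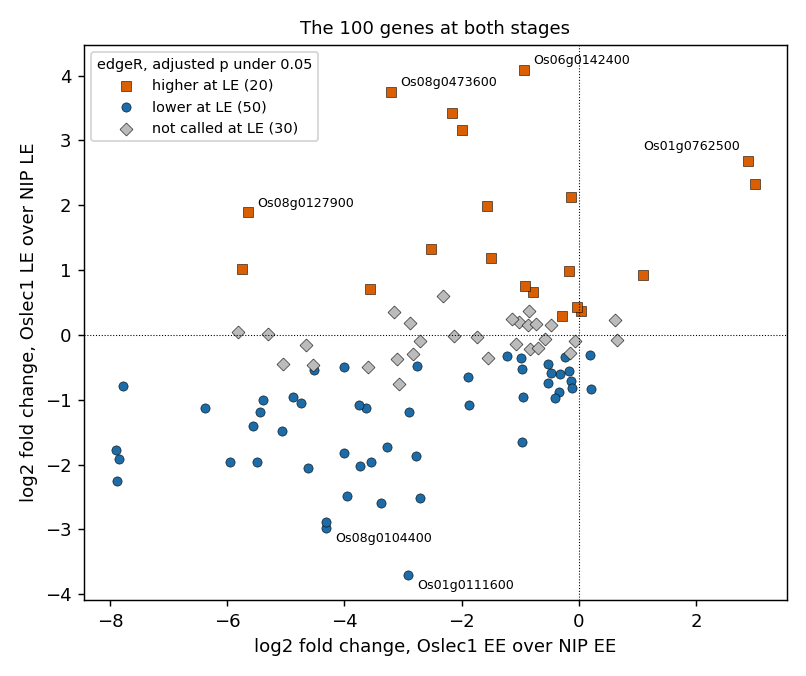
Log2 fold change of Oslec1 over NIP at LE (vertical) against EE (horizontal) for the 100 members, marked by their call at LE. Most points lie left of 0 at EE by the choice of members, and 50 are called lower, 20 higher and 30 not called at LE.

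In the wild type, 80 members had a lower fitted level at LE than at EE and 20 a higher one. The median log2 fold change of NIP LE against NIP EE was -1.82 (quartiles -2.93 and -0.35), given without a test. A value of -2 or below was found in 45 members (6.12% of all tested genes) and a value of 2 or above in 2 members (7.1% of all tested genes). Among the lowest values were those of the chromosome 6 gene Os06g0141600, at -8.92, and of Os01g0762500, at -6.90. Os11g0582400 had 2246, 2512 and 1968 CPM in NIP LE, against 85228, 101357 and 95907 CPM in NIP EE, a log2 fold change of -5.96. The 2 members that were higher by the limit were Os08g0104400, with 25809, 28222 and 26374 CPM in NIP LE against 1441, 1574 and 1609 CPM in NIP EE, and Os02g0161900, with a log2 fold change of 2.81.

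In the mutant, whose libraries took no part in the choice, the same stages could be tested. By edgeR, 39 members were lower in Oslec1 LE than in Oslec1 EE (29.1% of all 24491 tested genes), 48 were higher (30% of all tested genes) and 13 did not pass the test. With a log2 fold change of at least 2 in size, 5 were lower (4.94% of all tested genes) and 15 were higher (6.2% of all tested genes). Here too the shares over all tested genes were not matched for abundance. The median over the members was 0.26, with 0.00 for all tested genes. The same Oslec1 LE and Oslec1 EE libraries enter the comparisons with NIP, so these values are not independent of those at EE and LE.

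Among the higher members, Os08g0104400 had 3950, 3519 and 3513 CPM in Oslec1 LE, against 105.3, 118.7 and 147.9 CPM in Oslec1 EE, a log2 fold change of 4.87 ± 0.16 (SE, edgeR adjusted p = 3.53e-07). Its late level in the mutant was below that of NIP LE. Os05g0140800 had 708.3, 579.2 and 447.6 CPM in Oslec1 LE, against 18.6, 38.2 and 34.8 CPM in Oslec1 EE, a log2 fold change of 4.23 ± 0.30 (SE, edgeR adjusted p = 1.06e-05). Of the 4 genes that led NIP EE, Os03g0663750, Os08g0127900 and Os03g0793700 were higher in Oslec1 LE than in Oslec1 EE, by 0.95, 0.76 and 1.34 on the log2 scale (edgeR adjusted p = 0.00924, 0.0282 and 0.000717), and Os11g0582400, with 1.00, did not pass the test (edgeR adjusted p = 0.0517). The lower members were led by Os10g0400200 and Os01g0762500, the nutrient reservoir genes, with log2 fold changes of -7.20 ± 0.79 and -7.14 ± 0.90 (SE, edgeR adjusted p = 9.95e-05 and 0.000214). The remaining genes of the nutrient reservoir list moved beside them, with a summed level of 153.5 to 950.2 CPM in Oslec1 LE and 38526 to 42001 CPM in Oslec1 EE. In all of these values stage and library code cannot be told apart.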

How the data were processed

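Polyadenylated embryo RNA gave 12 libraries, 3 for each of 4 groups. Per the labels and the submitters' processing notes, reads were trimmed with Trimmomatic 0.36 and mapped to IRGSP-1.0 with HISAT2 2.1.0. The authors deposited whole-number counts per gene without normalization, and the counting program is not given in the sources used here. The deposited FPKM and TPM values per gene have the form that StringTie 1.3.4d writes. Read coverage was not used.

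Each pair of groups was compared on its counts by edgeR 4.0.16 under R 4.3.3 (filterByExpr, TMM, quasi-likelihood test, Benjamini-Hochberg adjustment over all tested genes). A gene was called at an adjusted p under 0.05, and also with a log2 fold change no smaller than 2 in size. Each SE is the size of the log2 fold change divided by the square root of the test's F statistic. At EE it serves as a description only. The procedure was tested on simulated data. Alternatives were RLE factors, library size alone, TMM without the members, DESeq2 1.42.0, a block for the replicate number, no filter, a minimum of 10 counts per library, limma 3.58.1 (log2 FPKM plus 1 or plus 0.1, with an FPKM of at least 0.5 in 3 libraries), and each replicate left out. The deposited TPM served for levels per length. Library totals of 16113922 to 27213238 counts set the precision, and p-values measure the spread between 3 libraries.

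The genes named were the 20 highest in NIP EE, the 5 lowest and 5 highest log2 fold changes among members called at LE, the same at EE without a call, and the genes next to the limit of the list. Of these, and of a few added after their values were seen (Os02g0161900, the chromosome 6 neighbours and Os10g0400200 at LE), the ones the results turn on are printed. Grouping by product class could not be done, since no product text was paired with the identifiers. The members and lists were chosen with earlier results of these data known. The identifiers were compared with RefSeq of assembly ASM3414082v1 and 0 members matched, so no sequences are given.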

Additional observations from a re-analysis of the deposited data

Results flagged for a closer look

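In 16 members (3.65% of all 22309 genes tested at both stages) every Oslec1 library lay below every NIP library at EE and above every NIP library at LE after TMM scaling, and in 2 members (3.54% of these genes) it was the other way round. The difference between the stages was not tested, and nothing is read from these counts, since the members were chosen on the NIP EE libraries. Of the genes named, Os08g0127900 had a log2 fold change of 1.90 at LE and -5.65 at EE. Os08g0473600 had 3.75 at LE and -3.20 at EE. Os11g0454300 had 1.32 at LE and -2.53 at EE. Os01g0905800 had 0.66 at LE and -0.77 at EE, and Os01g0124401 had 0.37 at LE, where it did not pass the test (edgeR adjusted p = 0.0956), and -0.86 at EE. The chromosome 6 neighbours Os06g0142400, Os06g0142300 and Os06g0141600 had 4.09, 3.42 and 3.16 at LE and -0.93, -2.17 and -1.997 at EE.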

How the results depend on the processing

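The median log2 fold change of the members at EE was -1.47 with library size alone and -1.53 with limma on log2 FPKM with 1 or 0.1 added, and lay between -2.46 and -1.97 with single replicates left out. The median for NIP LE against NIP EE was -1.25 with library size alone and -1.18 with limma on either FPKM scale. In place of -0.17, Os11g0703900 had 0.51 at EE with library size alone and 0.49 with limma on either FPKM scale. The members' share of counts became 11.4% in Oslec1 LE, 17.6% in NIP LE, 11.9% in Oslec1 EE and 16.3% in NIP EE without the 10 most abundant members. As a share of TPM it was 25.0% in NIP LE and 43.9% in NIP EE. Without the 3 members that lead NIP LE, chosen after seeing the data, it was 12.7% in Oslec1 LE and 14.5% in NIP LE. With single replicates left out, 39 to 55 members were called lower and 13 to 19 higher at LE. The counts of 50 lower and 20 higher members at LE were 55 and 21 with DESeq2 and 45 and 24 with library size alone. With the replicate number as a block, 57 members were called lower and 23 higher at LE, and 37 lower and 48 higher in Oslec1 LE against Oslec1 EE. The labels name no pairing of libraries with the same number. The correlation of their deviations was 0.366, -0.019 and 0.182 at LE, and -0.397 to 0.294 for libraries of different numbers. Whether they were paired at LE is thus left undecided.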
